A study of Mus musculus with 2 samples.

Results

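The ribbon synapse genes examined here were Otof, Slc17a8, Cacna1d, Cabp2, Ctbp2, Bsn, Pclo, Rims2 and Rimbp2, 9 of the 21938 protein-coding genes on chromosomes 1 to 19, X and Y. They were chosen by their known roles at the synapse, with earlier results of these data known. A peak was assigned to one of them when its centre lay within 3 kb of any transcription start site (TSS) of the gene in GENCODE vM21 (GRCm38), or in the gene body or the 10 kb upstream of it. Peaks within 3 kb of a TSS are called promoter peaks.

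Inner hair cells signal sound to the spiral ganglion neurons through ribbon synapses, at which an electron-dense ribbon tethers glutamate-filled vesicles beside voltage-gated calcium channels. Calcium entry through these channels triggers exocytosis through otoferlin, in place of the synaptotagmins that do this at most central synapses. The scaffold proteins bassoon, piccolo, RIM2 and RIM-BP2 hold the ribbon, the vesicles and the channels together at the active zone, and most of them are used by conventional neuronal synapses as well.

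The data were ATAC-seq peak lists, which mark DNA open to the Tn5 transposase, from the organ of Corti of mice at postnatal day 2. One library was from wild-type (WT) mice and 1 from Bmi1-/- littermates, which lack the Polycomb protein BMI1 in all cells, on a C57BL/6J background. Each library was made from cochleae of several pooled mice, so there was 1 library per genotype and no difference between genotypes could be tested. The intervals given below are exact 95% intervals and cover counting error only.

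The genotype of each list is that of its label. In both lists, however, 100% of the peak names carried the prefix of the other genotype, so the lists are named here only by their labels, as WT-labelled and mutant-labelled (Bmi1-/-). They held 77596 and 100431 peaks, and 52.4% and 62.8% of these passed a q-value of 0.05. The most common local background at the summits was 6.32 and 8.04 reads, a mutant-to-WT ratio of 1.27, and the part of this difference in the results was not tested. Within the Bmi1 gene there was 1 peak in the WT-labelled list, at percentile 40.1 by the rank of its −log10 p within the list, and there were 3 in the mutant-labelled list, the strongest at percentile 92.0. The deleted part of the gene is not given in the sources used here, so these peaks do not check the genotype.

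Since the whole organ of Corti was used, a different number of hair cells and a different openness per hair cell cannot be told apart. Of 10 hair cell markers, 8 had a promoter peak in the WT-labelled list (80%, 44.4 to 97.5) and 5 in the mutant-labelled list (50%, 18.7 to 81.3), against 59.1% and 68.2% of all protein-coding genes. Both intervals held the share of all genes and they overlapped each other. Myo7a, Myo6, Gfi1, Atoh1 and Espn had one in both, Lhx3, Barhl1 and Ccer2 in the WT-labelled list only, while the mechanotransduction channel gene Tmc1 and Rasd2 had none in either. Of the 8 with a promoter peak, 2 (Myo6 and Gfi1) stood at the higher percentile in the mutant-labelled list, against 68.6% of all genes with one. For Gfi1 the percentiles were close, 31.5 in the WT-labelled and 34.7 in the mutant-labelled list. Supporting cell markers had a promoter peak in 8 of 9 cases in each list, neuron markers in 5 of 9 in each, and glia markers in 3 and 4 of 6. Of those with one in either list, 6 of 8, 4 of 7 and 2 of 4 stood at the higher percentile in the mutant-labelled list. The part of these cells in the results below was not tested.

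Nearly all of the genes had a promoter peak in each list, and 7 of the 9 had one in both, against 53% of all protein-coding genes. A promoter peak was found for 8 of 9 genes (88.9%, 51.8 to 99.7) in the WT-labelled list, where 59.1% of all genes had one. It was again 8 of 9 (88.9%, 51.8 to 99.7) in the mutant-labelled list, where the share of all genes was 68.2%. Otof alone lacked a promoter peak in the WT-labelled list, and Bsn alone lacked one in the mutant-labelled list. A promoter peak in the mutant-labelled list only was found for 15.2% of all protein-coding genes, and one in the WT-labelled list only for 6.1%. The members have 63 TSSs between them, and of the protein-coding genes with more than 1 TSS, 66.3% and 75.2% had a promoter peak in the WT-labelled and mutant-labelled lists. Both intervals of the members hold these shares. The members were not matched to other genes on the number of TSSs.

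The strength of a peak was compared as its percentile, the rank of its −log10 p within its own list, because the values of the libraries are not on 1 scale. The strongest promoter peak stood at the higher percentile in the mutant-labelled list for 5 of the 9 genes (55.6%, 21.2 to 86.3), which were Otof, Slc17a8, Cacna1d, Pclo and Rims2. For Cabp2, Ctbp2, Bsn and Rimbp2 it was higher in the WT-labelled list. The percentiles of Cacna1d were close, 52.5 in the WT-labelled and 57.8 in the mutant-labelled list, from peaks of 20 and 21 reads. Of the 16298 protein-coding genes that had a promoter peak at all, 68.6% stood higher in the mutant-labelled list, a share within the interval of the members.

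**Figure D1:**
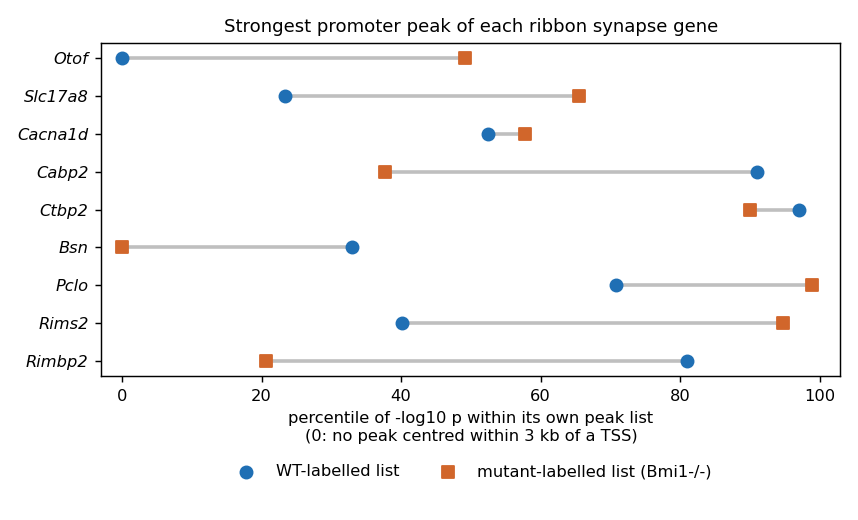
Percentile of the strongest promoter peak of each ribbon synapse gene within its own list (x axis, 0 where there was no promoter peak), for the WT-labelled list (circles) and the mutant-labelled list (squares), 1 library each. The square is on the right for 5 genes, among them Otof and Rims2, and the circle for the other 4, and Ctbp2 lies at or above percentile 90.1 in both.

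Otof encodes otoferlin, the calcium sensor of vesicle fusion in hair cells. It lies at chr5:30367062-30461932 on the − strand and has 4 TSSs. In the WT-labelled list its region held 7 peaks and none within 3 kb of a TSS. In the mutant-labelled list it held 11 peaks, 3 of them promoter peaks, and the strongest of these (chr5:30458970-30459176, 25 reads at the summit, percentile 49.2) lay in the first part of the gene, 2.86 kb inside its 5′ end. The clearest shared site of Otof was not at a TSS but in an intron 25.7 kb inside the gene. There the WT-labelled list had a peak with 20 reads at percentile 76.0 and the mutant-labelled list one with 25 reads at percentile 88.6. A further pair overlapped about 75.5 kb inside the gene, with 22 and 27 reads.

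Slc17a8 encodes VGLUT3, the transporter that loads glutamate into the vesicles of inner hair cells. It lies at chr10:89574020-89621253 on the − strand and has 2 TSSs. Its 5 peaks in the WT-labelled list held 15 or 16 reads at the summit and none passed a q-value of 0.05. The one nearest to the gene's 5′ end was centred 1.74 kb upstream at percentile 23.3. In the mutant-labelled list there were 4 peaks, 3 of them with a q-value under 0.05, and a pair of them lay 433 and 867 bp upstream of the gene, with 22 and 20 reads. None of these overlapped a peak of the other list. The upstream peak nearest to the start in the mutant-labelled list (chr10:89621586-89621787, percentile 65.5) is shown on the − strand, since it was the only peak of Slc17a8 within 500 bp of a TSS. In this and the other sequences, taken from RefSeq's GRCm38.p6, capitals mark CpG dinucleotides.

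Slc17a8: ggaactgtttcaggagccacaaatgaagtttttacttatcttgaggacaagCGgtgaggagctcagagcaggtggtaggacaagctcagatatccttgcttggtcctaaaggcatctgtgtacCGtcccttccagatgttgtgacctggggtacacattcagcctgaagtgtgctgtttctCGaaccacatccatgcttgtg

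The sequence holds 3 CpGs in 202 bases, a CpG observed-over-expected ratio of 0.249, and a pair of CAGATG E-boxes, the kind of site that basic helix-loop-helix factors can bind, when both strands are read.

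Cacna1d encodes Cav1.3, the calcium channel of the ribbon synapse. It lies at chr14:30039939-30491455 on the − strand, has 10 TSSs, and carried the largest numbers of peaks among the 9 genes, 24 in the WT-labelled list and 29 in the mutant-labelled list. Only 1 pair of these overlapped, 230 kb inside the gene. Neither list had a peak within 3 kb of the gene's 5′ end. The strongest promoter peak of the WT-labelled list had 20 reads at percentile 52.5, and the 2 strongest of the mutant-labelled list had 21 reads each at percentile 57.8. They lay at different internal TSSs.

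The strongest peak of the whole Cacna1d region was outside its promoter windows. It was in the mutant-labelled list, in an intron 11.8 kb inside the gene (chr14:30479331-30479946), with 36 reads over a background of 8.04, a fold enrichment of 4.09 and percentile 98.7. It also lies within 3 kb of a TSS of Dcp1a, an mRNA-decapping gene on the opposite strand, so it cannot be assigned to Cacna1d alone. In the WT-labelled list the strongest peak of the region stood at percentile 95.6 with 24 reads. This was also the peak nearest outside the 3 kb limit, 3152 bp from a TSS. The peak nearest inside the limit was one of Ctbp2 in the same list, 2943 bp from a TSS, with 18 reads at percentile 30.9.

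A CpG-rich start and the shared site of Cacna1d are shown. The first is the 250 bases before an internal TSS at 30353486 (chr14:30353487-30353736), part of which was covered by a promoter peak of the WT-labelled list with 15 reads at percentile 9.68. The second is the overlap of the only shared pair (chr14:30261532-30261722).

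Cacna1d before the internal TSS: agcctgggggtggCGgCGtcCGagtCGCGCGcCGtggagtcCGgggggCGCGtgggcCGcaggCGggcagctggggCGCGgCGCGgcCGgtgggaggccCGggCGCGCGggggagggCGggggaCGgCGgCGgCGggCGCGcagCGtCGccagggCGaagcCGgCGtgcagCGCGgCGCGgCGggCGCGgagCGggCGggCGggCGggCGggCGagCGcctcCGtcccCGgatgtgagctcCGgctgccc
Cacna1d shared intronic peak: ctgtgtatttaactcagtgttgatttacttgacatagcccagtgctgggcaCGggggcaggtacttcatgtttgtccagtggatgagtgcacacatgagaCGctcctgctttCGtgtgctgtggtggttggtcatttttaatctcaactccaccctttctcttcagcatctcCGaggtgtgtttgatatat

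The first stretch had 50 CpGs and a GC share of 86.4%, and the second had 4 CpGs and a GC share of 47.1%. The mutant-labelled list had no peak on the first stretch. Its nearest peak was centred 1592 bp upstream of that TSS, with 21 reads.

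Cabp2 encodes a calcium-binding protein that slows the inactivation of Cav1.3. It is the shortest of the genes (chr19:4081578-4087340, + strand) and has 5 TSSs. Each list had 1 peak in its region, and the peaks lay at different places. The WT-labelled peak was centred 184 bp upstream of the TSS at 4082488 (chr19:4082146-4082463), with 26 reads over a background of 8.42 and at percentile 91.1. The mutant-labelled peak was centred 1065 bp inside the TSS at 4083519, with 23 reads over a background of 10.1 and at percentile 37.7. The peak of the WT-labelled list is shown in the part that falls into RefSeq's promoter window (chr19:4082238-4082463, + strand), as the member promoter peak of this list that had no counterpart in the other and the highest percentile.

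Cabp2: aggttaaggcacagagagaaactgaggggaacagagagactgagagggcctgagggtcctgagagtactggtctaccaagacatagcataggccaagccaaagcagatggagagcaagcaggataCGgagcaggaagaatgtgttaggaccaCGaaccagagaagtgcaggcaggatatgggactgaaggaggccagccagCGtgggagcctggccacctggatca

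It holds 3 CpGs in 226 bases and a CAGATG E-box. Its CpG observed-over-expected ratio was 0.190.

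Ctbp2 encodes both the transcriptional co-repressor CTBP2 and RIBEYE, the main protein of the ribbon, which is made from a separate TSS. It lies at chr7:132987563-133124354 on the − strand and has 19 TSSs. It was the member with the strongest promoter peak in the WT-labelled list and with the most peaks shared between the lists, 4 in each. At the gene's 5′ end the WT-labelled list had a peak with 28 reads at percentile 97.1 (chr7:133123939-133124399) and the mutant-labelled list one with 31 reads at percentile 90.1 (chr7:133123615-133124659). A smaller pair nearby had summits 1 bp apart, with 18 and 25 reads. These 5′ peaks lie within 3 kb of an annotated TSS of Fgfr2 as well, which overlaps the locus in GENCODE.

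The transcript with the longest coding sequence, with 2964 coding bases, is the RIBEYE form by its long first coding exon and starts at 133015248. This exon (chr7:133013518-133015248, 1687 of 1731 bases coding) carried a shared peak. The WT-labelled peak was centred 1496 bp inside this TSS, with 21 reads at percentile 66.6. The mutant-labelled peak was centred 1335 bp inside it, with 27 reads at percentile 64.0. Scaled by the common backgrounds the ratio of the reads was 1.01, with a wide interval (0.550 to 1.88). The local backgrounds at this pair were higher than the common ones, 7.52 and 11.3 reads. The fold enrichments over them were 2.58 in the WT-labelled and 2.27 in the mutant-labelled list. No peak lay on the RefSeq promoter window of this TSS in either list.

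Bsn encodes bassoon, which anchors the ribbon to the active zone. It lies at chr9:108096022-108190384 on the − strand and has 2 TSSs. Its WT-labelled promoter peaks were weak. One was centred 612 bp inside the gene's 5′ end, with 17 reads at percentile 18.7, and the other was centred 2182 bp inside the other TSS, with 25 reads at percentile 32.9. In the mutant-labelled list the gene region held 8 peaks, as in the WT-labelled list, but none within 3 kb of a TSS. The strongest peak of Bsn in the WT-labelled list was in an intron 17.5 kb inside the gene and was 1 of 2 shared sites. In the mutant-labelled list the strongest was an unshared intronic peak 70.0 kb inside the gene, at percentile 81.1. The shared intronic site had 23 reads at percentile 94.8 in the WT-labelled list (chr9:108172738-108173044) and 19 reads at percentile 29.2 in the mutant-labelled list (chr9:108172748-108173009), and the scaled ratio was 0.649 (0.334 to 1.25), the lowest of the 12 shared pairs. The bases before the main TSS of Bsn (chr9:108190385-108190633), which had no peak in either list, and the shared intronic peak (chr9:108172748-108173009) are shown.

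Bsn before the TSS: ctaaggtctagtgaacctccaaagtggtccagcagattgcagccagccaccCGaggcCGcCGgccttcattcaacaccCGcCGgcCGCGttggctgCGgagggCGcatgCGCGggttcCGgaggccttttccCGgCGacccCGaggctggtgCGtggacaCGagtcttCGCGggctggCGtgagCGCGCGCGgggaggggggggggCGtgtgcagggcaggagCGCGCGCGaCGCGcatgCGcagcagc
Bsn shared intronic peak: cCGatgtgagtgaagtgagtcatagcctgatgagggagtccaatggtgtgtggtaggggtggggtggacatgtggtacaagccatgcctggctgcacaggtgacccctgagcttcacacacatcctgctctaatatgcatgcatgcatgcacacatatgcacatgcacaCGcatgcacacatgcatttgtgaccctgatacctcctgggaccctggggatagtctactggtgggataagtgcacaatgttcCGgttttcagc

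The stretch before the TSS had a GC share of 71.9% and the shared intronic stretch one of 53.1%. The CpG observed-over-expected ratios were 1.01 and 0.164.

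Pclo encodes piccolo, a large relative of bassoon of which hair cell ribbons carry a short form. It lies at chr5:14514918-14863459 on the + strand and has 3 TSSs. Its promoter peak had the highest percentile among the 9 genes in the mutant-labelled list. There the peak at the 5′ end (chr5:14514762-14515231) had 37 reads over a background of 8.04, a −log10 q of 9.49 and a fold enrichment of 4.20 (percentile 98.9). In the WT-labelled list the peak at the same place (chr5:14514977-14515178) had 19 reads over a background of 6.32 and a fold enrichment of 2.73 (percentile 70.8). The summits were 8 bp apart. After scaling by the common backgrounds the ratio was 1.53 (0.858 to 2.82), the highest of the 12 shared pairs, with an interval that held 1. This was the only peak of Pclo in the WT-labelled list, while the mutant-labelled list had 4 more in introns. The part of the latter peak upstream of the gene (chr5:14514762-14514917, + strand) is shown, as the flank by which the peak was wider in this list.

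Pclo: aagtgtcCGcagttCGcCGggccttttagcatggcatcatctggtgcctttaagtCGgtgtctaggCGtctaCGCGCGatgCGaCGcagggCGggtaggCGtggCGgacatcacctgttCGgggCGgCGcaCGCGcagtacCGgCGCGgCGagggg

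It holds 22 CpGs in 156 bases and a GC share of 66.7%, unlike the upstream peak of Slc17a8 above.

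Rims2 encodes RIM2, which helps to hold calcium channels at the active zone. It lies at chr15:39198261-39684372 on the + strand and has 11 TSSs. In the WT-labelled list its strongest promoter peaks had 17 reads, at percentile 40.1, and none of its promoter peaks passed a q-value of 0.05. In the mutant-labelled list there were 3 peaks within 3 kb of the 5′ end, of which the strongest (chr15:39197979-39198639) had 28 reads at percentile 94.7 and the next 24 reads at percentile 84.3. That second one overlapped the only peak of the WT-labelled list near the 5′ end, with 17 reads and a scaled ratio of 1.11 (0.572 to 2.20). The strongest peak had no counterpart in the WT-labelled list.

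Rimbp2 encodes RIM-BP2, which links RIM proteins to the calcium channels. It lies at chr5:128757791-128953486 on the − strand and has 7 TSSs. Neither list had a peak within 3 kb of the gene's 5′ end, and in each the only promoter peak lay at an internal TSS (128877066), 76.9 and 76.7 kb inside the gene. In the WT-labelled list it had 20 reads at percentile 81.0 (chr5:128876397-128876701), and in the mutant-labelled list it had 19 reads at percentile 20.7 (chr5:128876552-128877013). The scaled ratio was 0.747 (0.377 to 1.47). The overlap of the pair (chr5:128876552-128876701) is shown on the − strand as the only open site at an annotated start of this gene.

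Rimbp2: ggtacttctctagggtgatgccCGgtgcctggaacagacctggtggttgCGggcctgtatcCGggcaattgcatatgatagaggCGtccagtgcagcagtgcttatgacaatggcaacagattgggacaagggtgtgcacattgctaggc

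It holds 4 CpGs in 150 bases.

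Across the 9 genes the regions held 79 peaks in the WT-labelled list and 97 in the mutant-labelled list. Over 1951 kb this came to 4.05 and 4.97 peaks per 100 kb, against 4.57 and 5.74 over the regions of all protein-coding genes. The peaks were unevenly spread over the genes. Ctbp2 had 8.86 and 10.2 peaks per 100 kb, while Pclo had 0.279 and 1.39 and Rims2 had 1.41 and 1.01. Otof, Cacna1d, Ctbp2, Pclo and Rimbp2 had more peaks in the mutant-labelled list, Slc17a8 and Rims2 had more in the WT-labelled list, and Cabp2 and Bsn had equal numbers. By position, 68 of the 79 and 83 of the 97 peak centres lay in introns, and 5 and 6 in coding exons.

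At the median, these peaks stood somewhat below the middle of their lists. Summit pileups ran from 14 to 28 reads with a median of 18 in the WT-labelled list, and from 16 to 37 with a median of 21 in the mutant-labelled list. The median percentiles were 40.1 and 48.1. Of the peaks, 34 of 79 and 61 of 97 had a q-value under 0.05, against 52.4% and 62.8% of all peaks of the lists. At a −log10 q of at least 5 there were 0 and 2 left, the latter being the Pclo promoter peak and the Cacna1d intronic peak near Dcp1a. The share of all peaks at this limit was not counted.

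**Figure D2:**
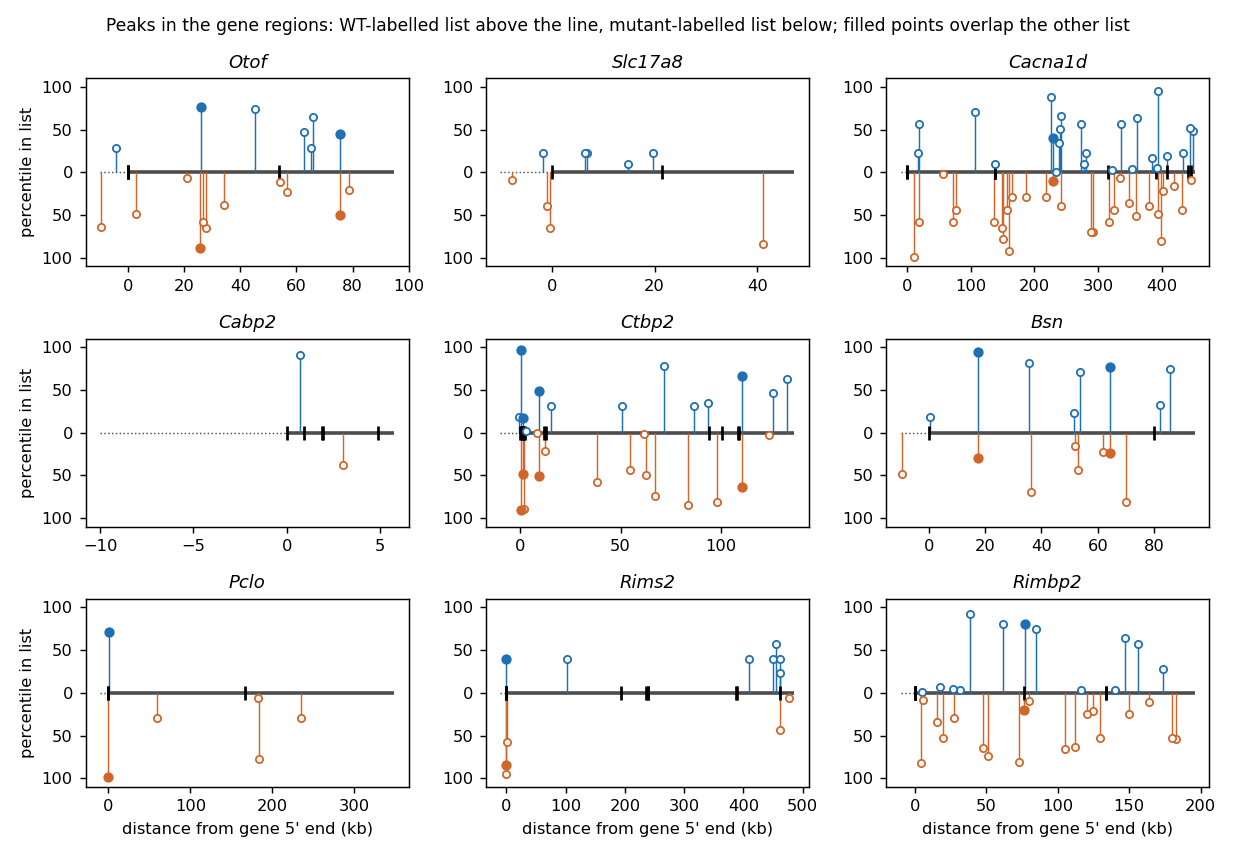
Peaks of the 9 gene regions by distance of their centre from the gene's 5′ end (x axis, kb) and percentile within their list (y axis), with the WT-labelled list above the gene line and the mutant-labelled list below. Black ticks mark TSSs, dotted lines the 10 kb upstream, and filled points the peaks that overlap the other list, 12 in each. The highest peak of Pclo in each list and that of Rims2 in the mutant-labelled list lie at the 5′ end, while those of Cacna1d and Rimbp2 are spread over the gene.

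Few of these sites were found in both lists. Of the 79 WT-labelled peaks, 12 overlapped a peak of the other list by at least 1 bp (15.2%, 8.10 to 25.0), against 28.9% of the peaks in all protein-coding gene regions. Of the 97 mutant-labelled peaks, 12 did (12.4%, 6.56 to 20.6), against 21.9%. Both intervals ended below the share of all gene regions, but they treat the peaks as independent, though many lie in the same gene. Cacna1d alone held 24 and 29 of the peaks, with 1 shared in each list. The shares without this gene were not taken, so the contrast may rest on it. The regions of the members were longer than those of most genes, with a median of 147 kb against 27.4 kb over all protein-coding genes, and the part of this in the shares was not tested. In each list 22 were promoter peaks, 27.8% (18.3 to 39.1) of the WT-labelled ones and 22.7% (14.8 to 32.3) of the mutant-labelled ones, against 40.3% and 40.1% over all gene regions. The measures differ, since the shares over all regions count a peak near a TSS of any protein-coding gene. For the members only their own TSSs count, so the Cacna1d peak near Dcp1a and the upstream WT-labelled Otof peak were placed outside. This also holds for the shares split by promoter window below. Among promoter peaks alone, 7 of 22 overlapped the other list in each (31.8%, 13.9 to 54.9), against 48.8% and 36.6% of all promoter peaks. Outside the promoter windows, 5 of 57 (8.77%, 2.91 to 19.3) and 5 of 75 (6.67%, 2.20 to 14.9) overlapped, against 15.4% and 12.1%. Each of these 4 intervals held the share of all genes.

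The shared sites belonged to 7 of the 9 genes, all but Slc17a8 and Cabp2, and in Ctbp2, Pclo, Rims2 and Rimbp2 they included a promoter peak. The share of all protein-coding genes with a shared site was not counted, so whether these numbers are unusual cannot be told. At the 12 pairs the scaled ratio of summit reads, mutant-labelled over WT-labelled, ran from 0.649 to 1.53 with a median of 0.963. The median over all 19568 overlapping pairs in the genome was 0.993. The ratio was above 1 in 4 of the 12 pairs and in 9509 of the 19568, and all 12 intervals held 1. Each count came from the summit in its own list, and the summits of a pair lay 1 to 488 bp apart. Pairs with distant summits thus compare different positions. The scaling used the common background of each list and not the local one, and only sites called in both lists were included. Within these limits no difference in the height of a shared peak was detectable at this depth.

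**Figure D3:**
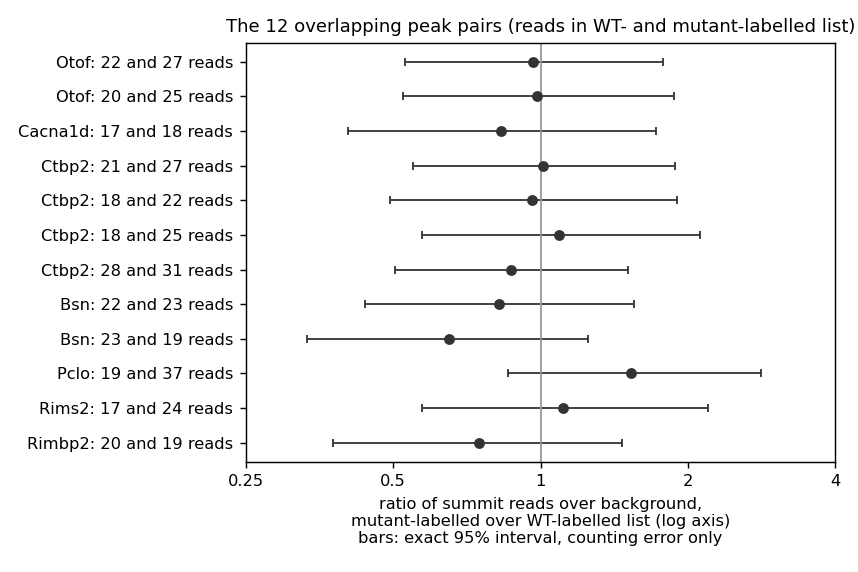
Ratio of summit reads in the mutant-labelled list to those in the WT-labelled list for the 12 overlapping pairs, each count divided by the common background of its list (log axis). Bars are exact 95% intervals from the counts, and all of them cross 1, from the Bsn intronic pair at 0.649 to the Pclo promoter pair at 1.53.

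The promoter sequences of the genes were described in RefSeq's windows of 300 bases (GRCm38.p6), from 250 before to 50 after a start. The table held 11 windows for 7 of the genes, and Otof and Rims2 were not among them. For Ctbp2 there were windows at the starts at 133015247 and 133081860 only. The 5′ end of Ctbp2, where its strongest promoter peak lay in each list, had no window and is not described here. By a GC share of at least 50% and a CpG observed-over-expected ratio of at least 0.6, 3 of the 11 windows were CpG-rich, those of Pclo, Bsn and the internal start of Cacna1d. Of the 21263 windows of protein-coding genes, 45.1% were. CpG-rich windows were overlapped by a peak in 55.0% of cases in the WT-labelled list and 75.9% in the mutant-labelled list, and the others in 10.4% and 17.4%. The Pclo window had 35 CpGs and a ratio of 1.08 and was overlapped only in the mutant-labelled list, since the WT-labelled peak began just past its end. The window at the internal start of Cacna1d had 63 CpGs and a ratio of 1.18 and was overlapped only in the WT-labelled list. The Bsn window had 38 CpGs and a ratio of 0.997 and was overlapped in neither. Of the 8 windows with few CpGs, 1 was overlapped, the Cabp2 window at 4082488 in the WT-labelled list.

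**Figure D4:**
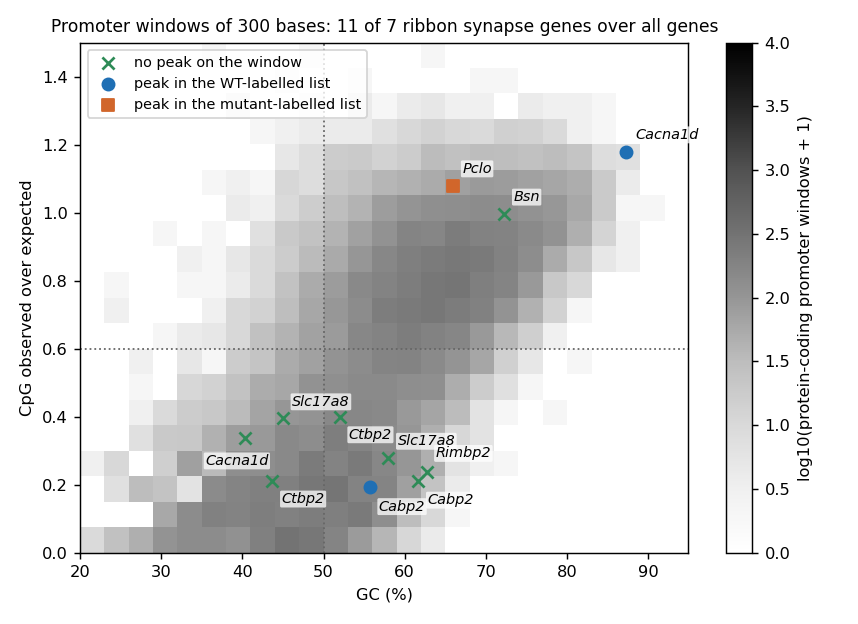
GC share (x axis, %) and CpG observed over expected (y axis) of 300-base promoter windows. Grey shading gives the number of the 21263 protein-coding windows on a log10 scale, points are the 11 windows of 7 ribbon synapse genes by overlap with a peak, and dotted lines mark the limits of 50% and 0.6 that define CpG-rich. Pclo, Bsn and 1 Cacna1d window lie above both limits.

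Matches to short motifs were counted on both strands, and no motif searched contains another. The E-box CAGCTG was in the windows of Cacna1d, Bsn and Rimbp2, 3 of 11, and in 15.6% of all windows. The E-box CAGATG was in those of Slc17a8, Cabp2, Pclo and Rimbp2, 4 of 11, and in 14.6% of all. The GC box GGGGCGGGG was in the Pclo window only, and in 15.4% of all. The right part of the site of the neuronal repressor REST, GGACAGCG, was in the Rimbp2 window, and in 1.60% of all, and an EBF site was in a Cabp2 window, and in 0.959% of all. The left part, TTCAGCACC, was in none of the 11 and in 0.414% of all. RFX, GFI1 and POU4 (ATAATTAAT) sites were in none of the 11 windows, and in 2.36%, 0.216% and 0.230% of all. These are matches of letters and not sites of binding.

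The other genes of the synapse were taken from 6 lists with 47 genes. Of these, 32 had a promoter peak in the WT-labelled list (68.1%, 52.9 to 80.9) and 39 in the mutant-labelled list (83.0%, 69.2 to 92.4), 29 of them in both. A promoter peak in the mutant-labelled list only was found for 10 genes and in the WT-labelled list only for 3, while 5 had none. Over all protein-coding genes these classes held 15.2%, 6.1% and 25.7%, and 53% had a promoter peak in both lists. The strongest promoter peak stood at the higher percentile in the mutant-labelled list for 32 of the 42 that had one at all. Over all protein-coding genes, 59.1% and 68.2% had a promoter peak in the WT-labelled and mutant-labelled lists. Of all genes with one at all, 68.6% stood higher in the mutant-labelled list.

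Among the 13 genes of release and endocytosis, 11 had a promoter peak in the WT-labelled list and all 13 in the mutant-labelled list. Those with one only in the latter were the SNARE genes Snap25 (percentile 88.6) and Vamp2 (36.8). The Vamp2 peak did not pass a q-value of 0.05, with a −log10 q of 1.28. Among the 8 calcium channel subunits, calcium buffers and related genes, the numbers were 5 and 6. The calcium buffer genes Calb2 (percentile 33.9) and Pvalb (32.9) had a peak only in the WT-labelled list. Calb1 (91.4), Cabp1 (81.6) and Ocm (15.8) had one only in the mutant-labelled list. Calcium buffers thus stood on both sides when peaks of any q-value were counted. The peaks of Calb2, Pvalb and Ocm did not pass a q-value of 0.05, with −log10 q of 1.15, 1.14 and 0.844. The strongest promoter peaks of Calb1 and Cabp1 passed it, with −log10 q of 3.56 and 2.56, both in the mutant-labelled list.

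Of the 7 other active zone scaffolds, 4 and 6 had a promoter peak, with Erc2 (percentile 97.8) and Tspoap1, which encodes RIM-BP1 (61.8), in the mutant-labelled list only. Of the 10 genes of conventional neuronal release, 5 and 7 had one, with Cplx2 (75.4) and the vesicular transporter gene Slc17a7 (61.8) in the mutant-labelled list only. Of the 7 postsynaptic genes, 5 and 6 had one, with the AMPA receptor gene Gria4 (91.4) in the mutant-labelled list only. Of the 2 efferent receptor genes, both had one in the WT-labelled list and 1 in the mutant-labelled list, which left Chrna9 (56.8) in the former only. In these lists the strongest promoter peaks of the WT-labelled list were those of Vamp3, Napa and Shank1, with −log10 q of 4.85, 3.44 and 2.99. In the mutant-labelled list they were those of Unc13b, Vamp3 and Dnm3, with −log10 q of 10.6, 10.3 and 8.88, and the Pclo promoter stood in this range with 9.49.

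**Figure D5:**
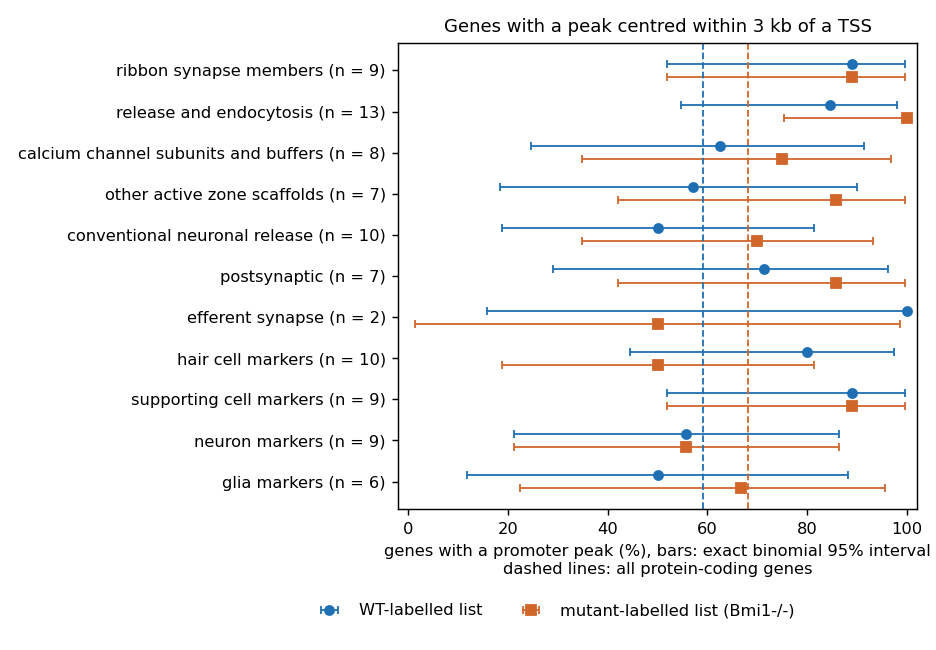
Share of genes with a promoter peak (x axis, %) in the ribbon synapse genes, the 6 lists of other synapse genes and 4 lists of cell type markers, for the WT-labelled list (circles) and the mutant-labelled list (squares). Bars are exact binomial 95% intervals and dashed lines the shares of all protein-coding genes, 59.1% and 68.2%. The ribbon synapse genes have the same share, 88.9%, in both lists.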

How the data were processed

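The data were 2 ATAC-seq peak lists of P2 organ of Corti, 1 per genotype, grouped by the genotype in the labels. The labels name FastQC, BWA, MACS2, HOMER and mm10, with no versions or options. Peaks were called by the authors in each library separately. Fold enrichment, as deposited, is a ratio, the summit pileup plus 1 over the local background plus 1. The authors' −log10 p and −log10 q come from a Poisson model of that background. The deposited score repeats the −log10 p and was not used. Positions were made 1-based, and 230 and 237 peaks on other sequences were left out. Weak peaks are included, since the lowest −log10 p was 2.00 and 2.01.

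The summit pileup and background were solved from fold enrichment and −log10 p, which gave whole pileups (within 0.01 in −log10 p) for 100% of peaks. Read totals are unknown. All peaks ended within GRCm38 chromosomes. Genes came from GENCODE vM21, in which Camlg is listed as Caml. Ratios of reads have exact conditional intervals and shares exact binomial ones. With 1 library per genotype no test was made. Alternatives were other q-value limits, equal numbers of peaks, RefSeq transcripts, other windows and overlaps, and ranking by fold enrichment.

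The members, lists and rules were chosen with earlier results of these data known. All 9 members are named, as are the other synapse genes with a promoter peak in 1 list only and the 3 with the strongest promoter peak in each list. Python 3.11.15, numpy 2.4.6, pandas 2.3.3, scipy 1.17.1 and matplotlib 3.10.9 were used, and the counting steps were tested on simulated data, with overlaps checked against bedtools 2.31.1. Other assays of the study were not analysed here.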

Additional observations from a re-analysis of the deposited data

How the results depend on the processing

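Of 57 values recomputed under another choice, 43 stayed within 1.5 times the reported count, or within the interval of the reported share, and 14 did not. With peaks of q under 0.05 only, 5 of the 9 genes had a promoter peak in the WT-labelled list (all but Otof, Slc17a8, Bsn and Rims2, against 45.3% of all genes). In the mutant-labelled list 7 genes had one (all but Bsn and Rimbp2, against 60.4%). The regions then held 34 peaks in the WT-labelled list and 61 in the mutant-labelled list. At a −log10 q of at least 5, 0 and 1 of the 9 genes and 0 and 8 of the 47 other synapse genes had a promoter peak (against 4.17% and 17.6% of all genes), the regions held 0 and 2 peaks, 0% of the latter overlapped, and the higher percentile in the mutant-labelled list was left for 1 gene, Pclo. The share of overlapped WT-labelled peaks could not be given there. With a promoter of 1 kb, 20 of the other synapse genes had a promoter peak in the WT-labelled list and 36 in the mutant-labelled list (against 49% and 60.4% of all genes). With a reciprocal overlap of 50%, 7.59% of the WT-labelled peaks and 6.19% of the mutant-labelled ones were shared. The share over all gene regions was not taken under this rule, so these values cannot be set against the shares given for 1 bp.

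With both lists reduced to equal numbers of peaks, the members stood higher in the mutant-labelled list in 4 of 9 cases and Rimbp2 lost its promoter peak there. With curated RefSeq transcripts Rimbp2 had none in either list. With a promoter of 1 kb Slc17a8 had none in the WT-labelled list and Cabp2 none in the mutant-labelled list. No paired analysis was possible because each genotype had 1 library. Peaks of 14 to 37 reads limit what can be told apart, and differences between animals were not measured.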
